A study of Homo sapiens with 10 samples.

Results

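The genes described here are 10 matricellular proteins and matrix crosslinkers, taken by gene symbol from the count data: FN1, TNC, THBS1, SPARC, TGFBI, POSTN, LOX, LOXL2, FBN1 and ELN. They are 10 of the 52402 symbols listed, and 9 of them were among the 14884 genes with enough counts to be tested, ELN being the exception. The cells were BEAS2B, an immortalised line of human bronchial epithelium labelled as normal, and mRNA-sequencing was carried out on 5 groups of 2 libraries. The miRcontrol group received a scrambled miRNA. The miR3124_mimic and miR200b_mimic groups received a synthetic miR-3124-5p or miR-200b-3p and are labelled as overexpression, and the miR92b_inhibitor group received an inhibitor of miR-92b and is labelled as knockdown. The 3-miRNA mixed group received all 3 reagents. Lipofectamine 2000, a lipid transfection reagent, was used in every group, the control included, so no untransfected cells enter any comparison. The study's methods give 1 final concentration for the mimics, the inhibitor and the control, and do not say whether it held in the mixture for each reagent or in total. They name the inhibitor by a catalogue number as directed at miR-92b, without stating the arm. All libraries come from 1 cell line, and the labels do not say whether the 2 libraries of a group were separate transfections, so p-values measure the spread between these libraries, which may be technical.

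Matricellular proteins are secreted into the extracellular matrix, where they bind matrix fibres, cell surface receptors and growth factors and so tune how cells attach and move. Crosslinking enzymes of the lysyl oxidase family oxidise lysine residues of collagen and elastin, which lets the fibres join covalently and stiffens the matrix. Airway epithelial cells make several of these proteins during repair and when they take on mesenchymal features. miRNAs lower the level or translation of mRNAs, chiefly through pairing of the seed, near the 5′ end of the miRNA, with complementary words in the 3′UTR.

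The mature sequences of the miRNAs that were raised or inhibited, and of miR-29a-3p, a member of a family known for acting on matrix genes that was not transfected, are shown because their seeds define the words searched in the matrix genes. They are from RefSeq (GRCh38.p14), and the capitals mark the seed, bases 2 to 8.
miR-3124-5p: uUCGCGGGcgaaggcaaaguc
miR-200b-3p: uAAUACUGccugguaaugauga
miR-92b-5p: aGGGACGGgacgcggugcagug
miR-92b-3p: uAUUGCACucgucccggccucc
miR-29a-3p: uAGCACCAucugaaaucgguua

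The 5 seeds all differed from one another, while miR-29b-3p and miR-29c-3p have the same seed as miR-29a-3p. The words searched on the transcript strand, each of 7 bases, were CCCGCGA for miR-3124-5p, CAGTATT for miR-200b-3p, CCGTCCC for miR-92b-5p, GTGCAAT for miR-92b-3p and TGGTGCT for the miR-29 family. In the longest annotated 3′UTR of each gene (GENCODE 29, GRCh38), the miR-200b-3p word was present in 6 of the 10 genes: FN1, TNC, THBS1, LOX, FBN1 and TGFBI. Of 12254 tested genes with a 3′UTR, 19.6% held this word. The miR-3124-5p word was in 0 of the 10 (0.62% of tested genes) and the miR-92b-5p word was in 0 (4.26%). The miR-92b-3p word was in FBN1 (13.3% of tested genes), and the miR-29 word was in SPARC, LOX, LOXL2 and ELN (17.0%). LOX carried the most words, 3 for miR-200b-3p and 3 for miR-29, in a 3′UTR of 3548 bases, against a median of 1405 bases over tested genes. The longest 3′UTR of FBN1 belongs to a short transcript near the start of the gene, and the TNC word lies in a transcript that is not the principal one. In the principal transcripts, an alternative chosen after seeing the data, the miR-200b-3p word was in FN1, THBS1, LOX and TGFBI (18% of 12159 tested genes), and the miR-29 word was in FBN1 as well (15.1%). A word is a match of letters and not a measured binding site.

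The 3′UTR stretches that hold the miR-200b-3p word in the principal transcripts are printed here. Of the genes that carry them, LOX and FN1 fell most in miR200b_mimic, by 2.11 and 1.21 on the log2 scale. TGFBI fell by 0.34, and THBS1 was not called. POSTN, which has no such word and low counts, fell by 1.45. TNC and FBN1, without it in the principal transcript, fell by 0.53 each, and LOXL2 fell by 0.20. SPARC, also without it, rose by 0.72. Whether the words had a part was not tested. Each stretch has 26 bases, is read 5′ to 3′ on the strand of the gene in GRCh38, and has the word in capitals. The LOX and FN1 stretches are on the minus strand, at chr5:122066404-122066429, chr5:122065348-122065373, chr5:122064925-122064950, chr2:215361296-215361321 and chr2:215361010-215361035 in the order printed. The THBS1 stretch (chr15:39598850-39598875) and the TGFBI stretch (chr5:136063535-136063560) are on the plus strand.
LOX, first: tgcaaaatggtCAGTATTatctaaat
LOX, second: cctatattaacCAGTATTaaaatctc
LOX, last: aaaactactgtCAGTATTaatactga
FN1, first: tcaataccgctCAGTATTttaaatga
FN1, last: tcaatttttccCAGTATTtttatacg
THBS1: agaaaagcctcCAGTATTaagctcct
TGFBI: aaaaggagcttCAGTATTgtggggct

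**Figure D1:**
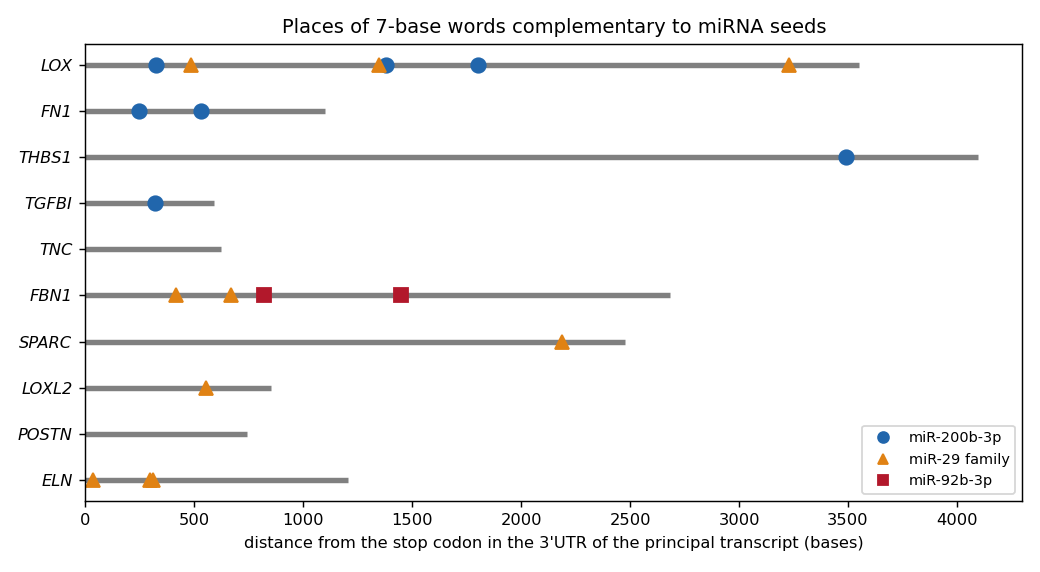
Places of the seed words (markers, by miRNA) along the 3′UTR of the principal transcript of each of the 10 genes (grey bars to scale, y axis), as distance from the stop codon in bases (x axis). LOX has 3 miR-200b-3p words and 3 miR-29 words, FBN1 has 2 miR-92b-3p words, and TNC and POSTN have none of the words searched.

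The deposited values were raw counts, with 13587666 to 18503890 counts per library, and levels are given as normalized CPM (counts scaled to the size of the library). The summed CPM of 8 airway epithelium markers (6 of them tested) was 2220 to 2270 in miRcontrol, 2770 to 2780 in miR3124_mimic, 4190 to 4270 in miR200b_mimic, 2100 to 2190 in miR92b_inhibitor and 4080 to 4110 in the mixed group, and TP63 had at most 3 counts in every library. KRT7, KRT8 and KRT18 carried this sum. KRT19 went against it in miR3124_mimic and the mixed group. Its averages were 8.21 CPM for miRcontrol, 0.760 for miR3124_mimic, 14.4 for miR200b_mimic and 2.62 for the mixed group. EPCAM and CDH1, at 0.289 and 0.146 in miRcontrol, rose as the sum did in miR200b_mimic, to 10.2 and 9.98. In the mixed group EPCAM was at 5.7 and 5.3 CPM and CDH1 at 2.5 and 1.9. The 9 mesenchymal markers (4 tested) summed to 3930 to 4130, 1130 to 1170, 3120 to 3140, 4450 to 4480 and 2890 to 2980 in the same order, with DCN and LUM at no more than 3 counts in any library. VIM made up most of this sum and fell in miR3124_mimic from 3800 to 813 CPM on average. The other 3 tested markers rose there, COL1A1 from 11.99 to 23.82, PDGFRB from 7.63 to 29.5 and THY1 from 211 to 286. In miR200b_mimic COL1A1 was higher than in miRcontrol (36.86 and 36.88 CPM), and PDGFRB (3.14 and 2.93) and THY1 (103 and 106) were lower. In the mixed group COL1A1 (21.62 and 22.33) and PDGFRB (13.11 and 10.55) were higher and THY1 (173 in both libraries) was lower. The 4 endothelial markers (1 tested) summed to 0.286 to 0.298 in miRcontrol and 3.22 to 4.78 in miR3124_mimic, through CDH5, and to at most 1.4 in the other groups. The leukocyte gene CD14 was at 0.801 and 1.43 CPM in miRcontrol and at 12.4 and 12.7 in miR3124_mimic, while PTPRC and CD3E had no more than 3 counts in any library. These markers moved with the groups, and their part in the results below was not tested. In bulk libraries a change in the number of cells that make an mRNA and a change in its level per cell cannot be told apart.

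The transfections changed these genes in different directions. Against miRcontrol, at an adjusted p under 0.05, 6 of the 9 tested genes changed in miR3124_mimic, 5 higher and 1 lower, where 51% of all tested genes were called, 25.7% higher and 25.3% lower. In miR200b_mimic 8 changed, 1 higher and 7 lower, against 40.6% of all tested genes, 21.4% higher and 19.1% lower. In miR92b_inhibitor 6 changed, 1 higher and 5 lower, against 35.7%, 17.5% higher and 18.2% lower. In the mixed group all 9 changed, 3 higher and 6 lower, against 42.7%, 21.5% higher and 21.1% lower. The rise of TNC among these (0.10 on the log2 scale) was not called under every alternative. The 9 genes other than ELN had a median log2 fold change of 0.18 with miR3124_mimic, -0.53 with miR200b_mimic, -0.41 with miR92b_inhibitor and -0.20 with the mixture, where the medians over all tested genes ran from -0.00611 to 0.00389.

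Abundant genes are called more often, and all of the tested members but POSTN had a mean of at least 100 CPM. Among the 2490 tested genes at that level, an alternative background chosen after seeing the data, 73.4% were called with miR3124_mimic (32.3% higher, 41.1% lower), 64% with miR200b_mimic (33.9% and 30.1%), 60.1% with miR92b_inhibitor (28.5% and 31.6%) and 65.1% with the mixture (31.9% and 33.3%). Of the 8 members at that level, 5 rose and 0 fell with miR3124_mimic, 1 rose and 6 fell with miR200b_mimic, 1 rose and 5 fell with miR92b_inhibitor, and 3 rose and 5 fell with the mixture. In either direction these are 5, 7, 6 and 8 of the 8. The 4 comparisons share the miRcontrol libraries.

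**Figure D2:**
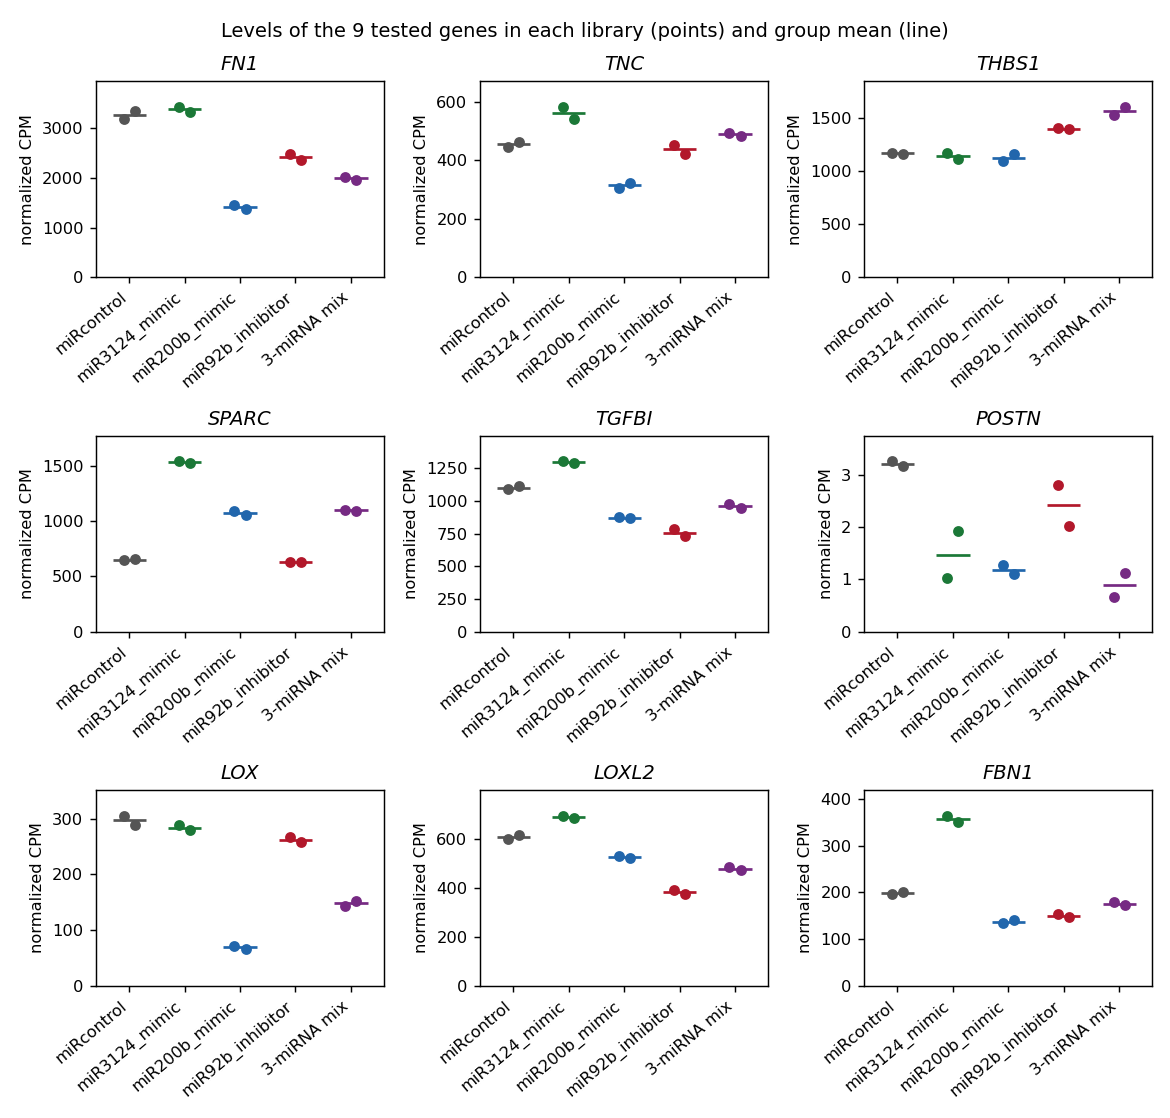
Normalized CPM (y axes, each from 0) of the 9 tested genes in the 10 libraries (points) by group (x axes), with the group mean as a line. The miR200b_mimic libraries are lowest for LOX and FN1, and the miR3124_mimic libraries are highest for SPARC and FBN1.

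FN1 encodes fibronectin, an adhesive glycoprotein of the matrix that binds integrins and collagen (chr2:215360440-215436172). Its level was 3181 and 3347 CPM for miRcontrol, 3436 and 3330 for miR3124_mimic, 1444 and 1369 for miR200b_mimic, 2490 and 2368 for miR92b_inhibitor, and 2026 and 1953 for the mixed group. The miRcontrol and miR3124_mimic libraries overlapped, and the other groups each lay apart from all the rest. FN1 fell in miR200b_mimic by 1.21 on the log2 scale (SE 0.0351, adjusted p = 4.58e-31), which is 2.32-fold lower. It fell by 0.43 in miR92b_inhibitor (SE 0.0344, adjusted p = 5.32e-14) and by 0.71 in the mixed group (SE 0.0346, adjusted p = 2.02e-22). In miR3124_mimic the log2 difference was 0.05 (95% interval -0.0176 to 0.121, adjusted p = 0.216), and this was called only when library totals replaced the normalization (0.08, adjusted p = 0.0394). The order of the levels was miR3124_mimic, miRcontrol, miR92b_inhibitor, mixed group and miR200b_mimic, and only the first pair of neighbours did not differ.

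LOX encodes lysyl oxidase, which crosslinks collagen and elastin (chr5:122063195-122078360). It had 305 and 289 CPM for miRcontrol, 289 and 279 for miR3124_mimic, 72.3 and 66.0 for miR200b_mimic, 267 and 258 for miR92b_inhibitor, and 144 and 153 for the mixed group. The miR200b_mimic libraries were the lowest and those of the mixed group the next, with no overlap with any other group. The fall in miR200b_mimic was 2.11 on the log2 scale (95% interval -2.21 to -2.01, adjusted p = 4.7e-35), or 4.31-fold, and only 59 of the 14884 tested genes had a lower log2 fold change there. LOX fell by 1.0 in the mixed group (SE 0.0426, adjusted p = 1.53e-24) and by 0.18 in miR92b_inhibitor (SE 0.0407, adjusted p = 0.000393). In miR3124_mimic the log2 difference was -0.07 (95% interval -0.151 to 0.0132, adjusted p = 0.16). LOX was 0.11 higher on the log2 scale in miR3124_mimic than in miR92b_inhibitor (adjusted p = 0.0177), and this call was lost without miR3124_mimic replicate 1 (0.09, adjusted p = 0.153) or miR92b_inhibitor replicate 2 (0.08, adjusted p = 0.182). SRFBP1, a gene on the opposite strand that overlaps LOX, was at 36.3 ± 5.04 CPM (SD, n = 2) in miRcontrol and 37.9 ± 0.414 in miR200b_mimic. Whether reads were assigned by strand is not given in the sources used here.

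LOXL2 encodes a lysyl oxidase relative that acts on collagen and lies on the same strand as ENTPD4, which it overlaps. Its level was 600 and 614 CPM for miRcontrol, 695 and 684 for miR3124_mimic, 531 and 524 for miR200b_mimic, 392 and 375 for miR92b_inhibitor, and 484 and 472 for the mixed group. No groups overlapped, and the inhibitor libraries were the lowest. It fell by 0.66 in miR92b_inhibitor (SE 0.0354, adjusted p = 5.24e-20), by 0.35 in the mixed group (SE 0.0349, adjusted p = 1.53e-11) and by 0.20 in miR200b_mimic (SE 0.035, adjusted p = 4.6e-06), and rose by 0.18 in miR3124_mimic (SE 0.0346, adjusted p = 1.46e-05), all on the log2 scale. All neighbours in the order of its levels differed. ENTPD4 had 128 ± 0.233 CPM in miRcontrol, 167 ± 2.09 in miR3124_mimic and 119 ± 3.32 in miR92b_inhibitor (SD, n = 2), and reads from the shared stretch could have been counted for either gene.

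SPARC encodes osteonectin, a collagen-binding matricellular protein (chr5:151661096-151687165). It had 649 and 653 CPM for miRcontrol, 1540 and 1522 for miR3124_mimic, 1090 and 1051 for miR200b_mimic, 632 and 630 for miR92b_inhibitor, and 1097 and 1093 for the mixed group. No groups overlapped, and the 2 libraries of a group lay close together. SPARC rose in miR3124_mimic by 1.23 on the log2 scale (SE 0.0332, adjusted p = 1.86e-32), or 2.35-fold, and 641 of the tested genes had a higher log2 fold change. It rose by 0.72 in miR200b_mimic (SE 0.0332, adjusted p = 3.95e-23), where it was the only one of these genes that rose, and by 0.75 in the mixed group (SE 0.0331, adjusted p = 6.45e-24). In miR92b_inhibitor the difference was -0.05 (95% interval -0.113 to 0.022, adjusted p = 0.313). The mixed group and miR200b_mimic differed by 0.03 (95% interval -0.0326 to 0.0988, adjusted p = 0.46). Its 3′UTR has no miR-200b-3p word and 1 miR-29 word. LOX, LOXL2 and the principal transcript of FBN1 also hold the miR-29 word, and these genes fell in miR200b_mimic. The miR-29 family was not transfected, and whether it had a part was not tested. The SPARC stretch with this word lies at chr5:151661370-151661395 on the minus strand, with the word in capitals.
SPARC: attggcccattTGGTGCTggccattt

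TNC encodes tenascin C, a matricellular protein of tissue repair that modulates cell adhesion (chr9:115019578-115118257). Its level was 448 and 464 CPM for miRcontrol, 584 and 541 for miR3124_mimic, 307 and 323 for miR200b_mimic, 454 and 421 for miR92b_inhibitor, and 494 and 484 for the mixed group. TNC rose in miR3124_mimic by 0.30 (SE 0.0391, adjusted p = 6.56e-09) and fell in miR200b_mimic by 0.53 on the log2 scale (SE 0.0405, adjusted p = 2.17e-15). The miR92b_inhibitor libraries overlapped miRcontrol (-0.06, 95% interval -0.138 to 0.0204, adjusted p = 0.26). In the mixed group TNC was 0.10 higher (adjusted p = 0.032), a call that was lost with DESeq2 (adjusted p = 0.0607), without miRcontrol replicate 1 (adjusted p = 0.254) and without either library of the mixed group (adjusted p = 0.167 and 0.0695).

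THBS1 encodes thrombospondin 1, a glycoprotein that can activate latent TGF-beta (chr15:39581079-39599466). It had 1173 and 1165 CPM for miRcontrol, 1169 and 1113 for miR3124_mimic, 1097 and 1159 for miR200b_mimic, 1406 and 1400 for miR92b_inhibitor, and 1531 and 1611 for the mixed group. It was the only one of these genes that rose in miR92b_inhibitor, by 0.26 (SE 0.0345, adjusted p = 3.28e-08), and it rose by 0.43 in the mixed group (SE 0.0345, adjusted p = 1.8e-14). The difference was -0.04 in miR3124_mimic (95% interval -0.106 to 0.0342, adjusted p = 0.414) and -0.05 in miR200b_mimic (95% interval -0.121 to 0.0187, adjusted p = 0.253). The miR3124_mimic and miRcontrol libraries overlapped, and its 3′UTR holds 1 miR-200b-3p word.

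TGFBI encodes a TGF-beta-induced protein of the matrix (chr5:136028895-136063818). It was at 1088 and 1114 CPM for miRcontrol, 1304 and 1286 for miR3124_mimic, 877 and 865 for miR200b_mimic, 783 and 728 for miR92b_inhibitor, and 978 and 945 for the mixed group. No groups overlapped. It rose by 0.23 in miR3124_mimic (SE 0.0345, adjusted p = 1.39e-07). It fell by 0.34 in miR200b_mimic (SE 0.0349, adjusted p = 2.91e-11), by 0.54 in miR92b_inhibitor (SE 0.035, adjusted p = 2.97e-17) and by 0.20 in the mixed group (SE 0.0347, adjusted p = 6.9e-06), so that, as for LOXL2, the lowest level was that of the inhibitor.

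FBN1 encodes fibrillin 1, which forms the microfibrils on which elastin is laid down (chr15:48408306-48645849). It had 197 and 201 CPM for miRcontrol, 364 and 350 for miR3124_mimic, 135 and 140 for miR200b_mimic, 154 and 147 for miR92b_inhibitor, and 179 and 173 for the mixed group, with no overlap between groups. It rose by 0.84 in miR3124_mimic (SE 0.0395, adjusted p = 3.14e-23) and fell by 0.53 in miR200b_mimic (SE 0.0429, adjusted p = 1.41e-14), 0.40 in miR92b_inhibitor (SE 0.0418, adjusted p = 7.66e-11) and 0.18 in the mixed group (SE 0.041, adjusted p = 0.000399). The difference between miR200b_mimic and miR92b_inhibitor (-0.13, adjusted p = 0.0129) was lost without miR200b_mimic replicate 1 (adjusted p = 0.125) or miR92b_inhibitor replicate 1 (adjusted p = 0.147).

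POSTN encodes periostin, a matricellular protein, and was present at a few CPM (chr13:37562583-37598844). Its counts were 57 and 53 for miRcontrol, 15 and 34 for miR3124_mimic, 17 and 19 for miR200b_mimic, 48 and 37 for miR92b_inhibitor, and 12 and 21 for the mixed group. The miRcontrol libraries were the highest on the CPM scale, and the miR3124_mimic libraries spread most. It fell by 1.83 in the mixed group (95% interval -2.49 to -1.16, adjusted p = 9.74e-06), by 1.45 in miR200b_mimic (95% interval -2.11 to -0.79, adjusted p = 0.000286) and by 1.09 in miR3124_mimic (adjusted p = 0.00259). The last call was lost without miR3124_mimic replicate 1 (-0.74, adjusted p = 0.0827). In miR92b_inhibitor the difference was -0.42 (95% interval -0.98 to 0.147, adjusted p = 0.262). ELN, which encodes elastin, the elastic core of the fibres, had 1 count in 1 miRcontrol library and 0 in the other 9, so no fold change is given.

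**Figure D3:**
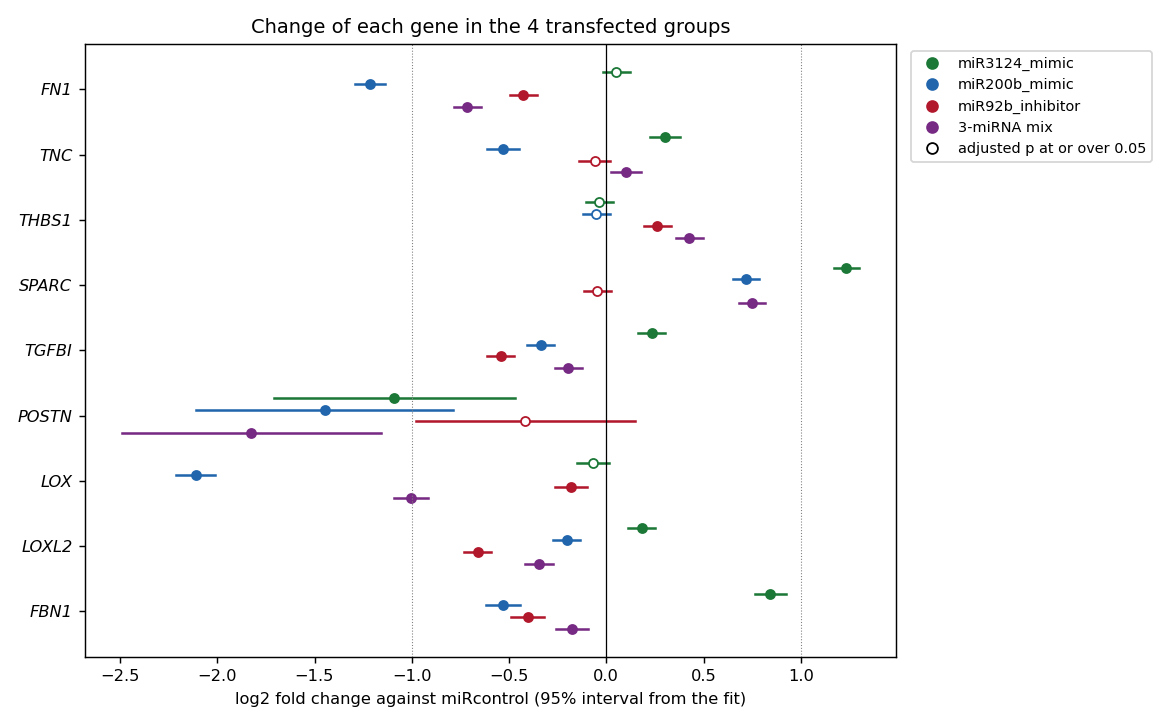
Log2 fold change against miRcontrol (x axis, with 95% intervals from the fit) of the 9 tested genes (y axis) in the 4 transfected groups, open points marking an adjusted p at or over 0.05 and dotted lines 2-fold. LOX in miR200b_mimic (-2.11) lies lowest and SPARC in miR3124_mimic (1.23) highest, and the intervals of POSTN are the widest.

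Per kilobase of the principal transcript, which allows genes to be compared, FN1 (413 CPM per kilobase) and TGFBI (393) were the highest in miRcontrol and POSTN (0.953) was the lowest of the tested genes. SPARC (176), LOXL2 (171) and THBS1 (150) lay between, with TNC (59.7), LOX (58.3) and FBN1 (16.9) below. These levels depend on the transcript length taken.

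In the mixed group, 7 of the 9 departed from the sum of the 3 single log2 changes at an adjusted p under 0.05, 6 above the sum and 1 below, where 21.7% of all tested genes departed, 11.7% above and 10.1% below. The 7 were all among the 8 abundant members, and 45.8% of abundant genes departed, 27.5% above and 18.3% below. LOX fell by 2.36 in the sum and by 1.0 in the mixture, a departure of 1.35 (SE 0.0863, adjusted p = 5.79e-17). FN1 was at -1.59 in the sum and -0.71 in the mixture (departure 0.88, adjusted p = 4.56e-14). SPARC departed below the sum, with 1.91 in the sum and 0.75 in the mixture (departure -1.16, adjusted p = 2.34e-18). TNC, LOXL2 and TGFBI departed by 0.39, 0.34 and 0.45, and THBS1 by 0.25 (adjusted p = 0.00563), which was lost without miRcontrol replicate 1 (adjusted p = 0.0534). FBN1 departed by -0.08 (95% interval -0.249 to 0.0843, adjusted p = 0.55) and POSTN by 1.13 (95% interval -0.17 to 2.42, adjusted p = 0.233). Since the amount of each reagent in the mixture is not stated, a lower dose of each and an interaction between them cannot be told apart.

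**Figure D4:**
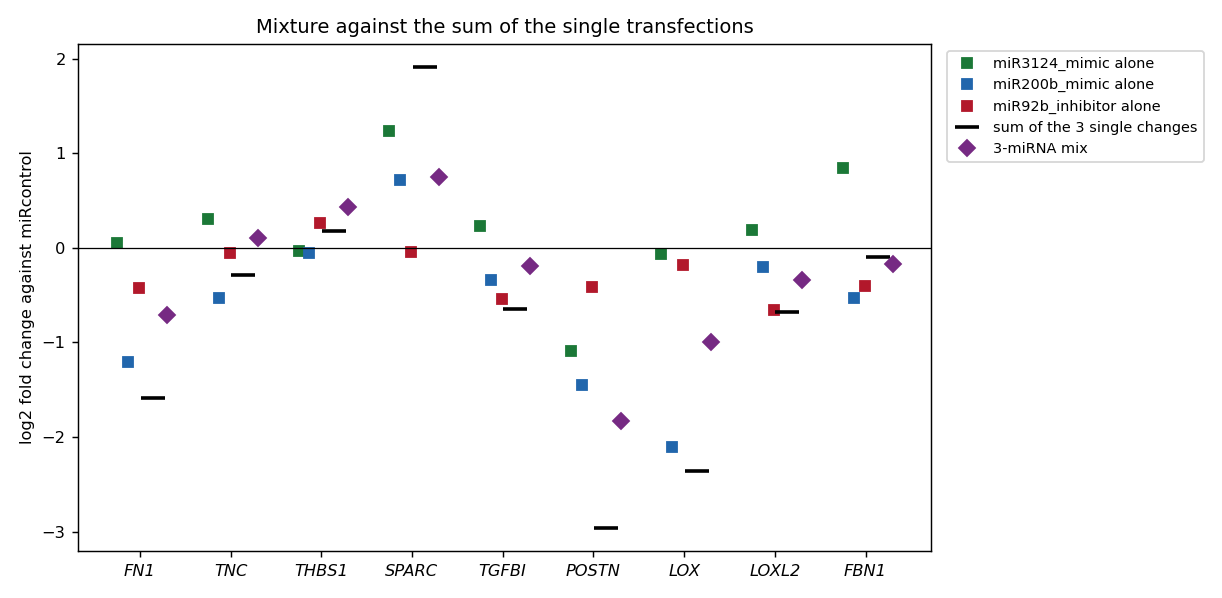
Log2 fold change against miRcontrol (y axis) of the 9 tested genes (x axis) for each single transfection (squares), their sum (bars) and the 3-miRNA mixed group (diamonds). The mixed group lies above the sum for LOX and FN1 and below it for SPARC.

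Against the single transfections, the mixed group differed from miR3124_mimic in 8 of the 9 genes, 1 higher and 7 lower (49.1% of all tested genes were called, 25.3% higher and 23.8% lower). It differed from miR200b_mimic in 7, 6 higher and 1 lower (38.6%, 18.2% and 20.4%), and from miR92b_inhibitor in 9, 6 higher and 3 lower (39.6%, 19.7% and 19.9%). LOX was 1.11 higher on the log2 scale in the mixed group than in miR200b_mimic (SE 0.0504, adjusted p = 6.39e-23) and FN1 was 0.50 higher (SE 0.0349, adjusted p = 2.28e-16). Between the single transfections, 7 genes differed for miR3124_mimic against miR200b_mimic, all 7 higher (57.8% of all tested genes, 27.9% higher and 29.9% lower). For miR3124_mimic against miR92b_inhibitor 8 differed, 7 higher and 1 lower (58.8%, 29.5% and 29.4%), and for miR200b_mimic against miR92b_inhibitor 9 differed, 3 higher and 6 lower (50.5%, 25.6% and 24.8%). Among abundant genes the shares called were higher, 71%, 61.8% and 62.5% for the mixed group against miR3124_mimic, miR200b_mimic and miR92b_inhibitor, and 78%, 80.4% and 74.9% for the other 3 comparisons in the order given, where the 8 abundant members were called 8, 7, 8, 7, 8 and 8 times. Under the study's own criterion, which asks for 2-fold or more and an unadjusted p below 0.05, 2 members passed with miR3124_mimic (8.81% of tested genes), 3 with miR200b_mimic (5.7%), 0 with miR92b_inhibitor (2.63%) and 2 with the mixture (5.42%). For the mixture against the single transfections it passed 1 member each, with 6.89%, 4.17% and 4.8% of tested genes, and between the single transfections 3, 2 and 2, with 12.7%, 11.9% and 7.73%.

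Of the 62 other matrix genes listed, 44 could be tested, and 28 were higher and 6 lower with miR3124_mimic, 7 higher and 16 lower with miR200b_mimic, 4 higher and 19 lower with miR92b_inhibitor, and 13 higher and 9 lower with the mixture. Of all tested genes, 25.7% were higher and 25.3% lower with miR3124_mimic, 21.4% and 19.1% with miR200b_mimic, 17.5% and 18.2% with miR92b_inhibitor, and 21.5% and 21.1% with the mixture. The shares among abundant genes, given above, were higher, and the related genes were not counted by abundance. CTGF, a matricellular protein of the CCN family, rose by 1.66 in miR3124_mimic (adjusted p = 8.35e-36) and 0.89 in the mixed group. TGM2, transglutaminase 2, a crosslinking enzyme, rose by 1.87 in miR200b_mimic (adjusted p = 1.83e-35), 0.52 in miR92b_inhibitor and 1.59 in the mixed group. MFAP2, a microfibril protein, rose by 1.96 in miR3124_mimic (adjusted p = 2.45e-05). Its rises of 1.10 in miR92b_inhibitor (adjusted p = 0.035) and 1.13 in the mixed group (adjusted p = 0.0226) lay nearer the threshold. MMRN2 fell by 1.28 in miR3124_mimic. THBS2 fell by 1.22 and FBN2, a fibrillin, by 0.55 in miR200b_mimic, LOXL1, a lysyl oxidase relative, fell by 0.63 in miR92b_inhibitor, and LTBP4, a latent TGF-beta binding protein, fell by 0.80 in the mixed group.

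**Figure D5:**
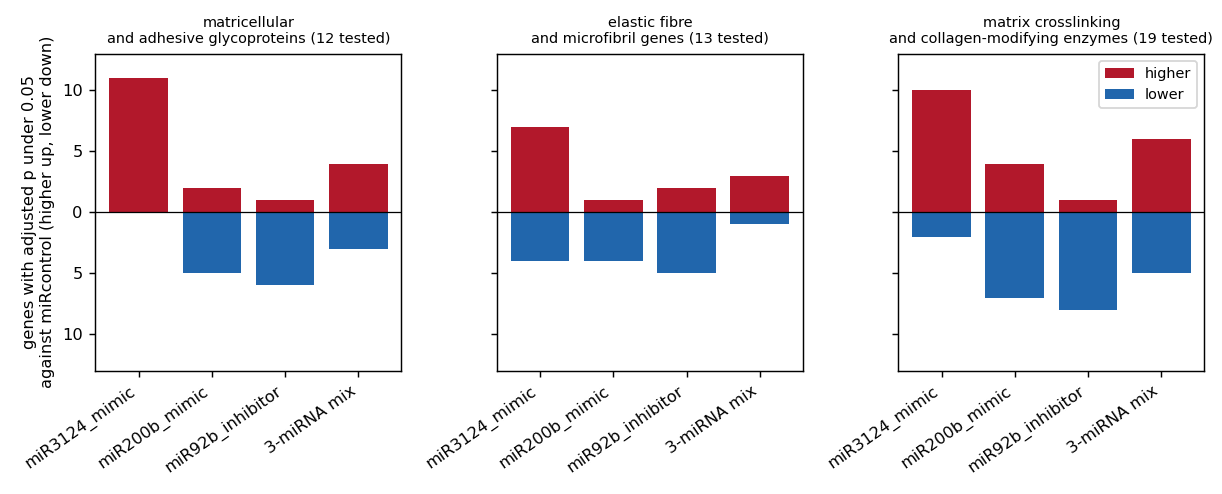
Number of related genes (y axis) called at an adjusted p under 0.05, higher (up) or lower (down), against miRcontrol in the 4 transfected groups (x axis), for 3 fixed lists of 12, 13 and 19 tested genes. In the list of matricellular and adhesive glycoproteins, 11 of 12 were higher in miR3124_mimic and 0 lower. The elastic fibre and microfibril list had 7 higher and 4 lower there. The list of crosslinking and collagen-modifying enzymes had 10 higher and 2 lower, where 25.7% of all tested genes were higher and 25.3% lower.

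Over the 10 libraries, the genes whose log2 CPM followed the members most closely among 12891 tested genes were CASC4 (Pearson r = 0.9966) and CFL2 (r = 0.9907) for LOX, CHD7 (r = 0.9962) and KIAA0319L (r = 0.9937) for SPARC, TTC3 (r = 0.994) and P3H1 (r = 0.9859) for FN1, CHD3 (r = 0.9956) and ASIC1 (r = 0.9926) for FBN1, and RMI1 (r = 0.9529) and ZNF618 (r = 0.9496) for POSTN. These are descriptions over libraries that share the 5 groups, and only the 5 members whose group means differed by at least 2-fold were compared. The 12891 genes had a mean of at least 1 CPM and did not include the members. Pearson r ignores the size of a change. The highest over the lowest group mean was 1.3 for RMI1 against 3.58 for POSTN. It was 1.49 for CHD3 and 3.5 for ASIC1 against 2.6 for FBN1.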

How the data were processed

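The 10 libraries were prepared by the authors with a directional kit after poly(A) selection and sequenced as paired ends; reads were trimmed and mapped with TopHat, and GRCh38 is the build in the submitters' notes. The counting tool and annotation are not given in the sources used here. The authors deposited raw counts per gene symbol, without normalization; counts of repeated symbols were summed here. The members and lists were chosen with earlier results of these data known, and some alternatives after seeing the data. Named genes were all members, the largest rise and fall of each related list (only some are printed), and the 2 genes most like each member whose group means differed by at least 2-fold. Counts were fitted with edgeR 4.0.16 in R 4.3.3 (filterByExpr, RLE normalization, factors 0.985 to 1.02, quasi-likelihood test, all 10 libraries in one fit, Benjamini-Hochberg adjustment over 14884 genes, 95% intervals from the fit). The fit was also run on simulated data. Far fewer genes were changed there than were called here, so it was not checked under broad change. Alternatives were TMM, library totals, DESeq2 1.42.0, other filters, only the groups compared, a replicate block and leaving out each library. Library pairs within a group differed beyond sampling noise (chi-square over degrees of freedom 1.76 to 2.67). Positions and 3′UTRs came from GENCODE 29. 1 marker gene is not reported here.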

Additional observations from a re-analysis of the deposited data

How the results depend on the processing

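Of 190 counts recomputed under the alternatives, 180 stayed within 1.5 times the reported count. This bound is wide. For members, 6 or more of 9 were called at the start, so a rise could not exceed 1.5 times. The change from 6 to 4 genes with the miR-200b-3p word in the principal transcripts also counted as within it. The other 10 counts were the criterion of at least 2-fold with an unadjusted p under 0.05. Against miRcontrol it called 2, 3, 0 and 2 members in miR3124_mimic, miR200b_mimic, miR92b_inhibitor and the mixed group. For the mixed group against those single transfections it called 1, 1 and 1. It called 3, 2 and 2 for miR3124_mimic against miR200b_mimic, miR3124_mimic against miR92b_inhibitor, and miR200b_mimic against miR92b_inhibitor. The shares of all tested genes that passed it are given above. Of 1134 recomputed log2 fold changes, 1112 kept their direction and side of the threshold, 14 lost and 5 gained a call, and 3 changed sign. These 3 were never called: leaving out 1 library gave -0.0305 to 0.0482 for THBS1 and -0.199 to 0.706 for POSTN, both in miR3124_mimic against miR200b_mimic. POSTN rested on 12 to 57 counts per library, and its comparisons of miR92b_inhibitor with miR3124_mimic and with miR200b_mimic passed or missed the threshold with the filter, the tool or the library left out. TNC in the mixed group against miR92b_inhibitor lost its call without miR92b_inhibitor replicate 2 (adjusted p = 0.08). Same-numbered libraries shared little deviation (correlations -0.1 to 0.0784 over 9268 genes). These correlations rest on 2 libraries a group, so they cannot tell whether the numbers pair the libraries. With the replicate number as a block, 6, 8, 6 and 9 members were called against miRcontrol, and 7 departed from the sum. With 2 libraries a group, leaving out 1 assumes that the lone library varies like the other groups.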
